A study of Mus musculus with 78 samples.

Results

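Nascent transcription of genes was compared between mouse embryonic stem cells (mESCs) depleted of TRIM28 for 24 h and vehicle-treated mESCs. The comparison covered every gene longer than 200 bp in the TT-SLAM-seq table, 47833 of its 54435 genes, of which 11404 reached the level needed for a test. Its 6 libraries, 3 per group, belong to a nascent time course of 12 libraries in a series of 78 samples. The cells were V6.5 mESCs in which both groups carried an FKBP degron fused to the N terminus of endogenous TRIM28, together with an mRuby2-P2A reporter. The edited line was picked from single colonies, so that both groups stand for 1 clone. One group received 500 nM dTAG-13, the ligand that sends the FKBP-tagged protein to the proteasome, for 24 h. The other received 0.05% DMSO and is labelled 0 h. Both were kept in serum with 2000 U/ml LIF on gelatin after depletion of the feeder fibroblasts, and both were pulsed with 500 µM 4-thiouridine for 15 min before RNA extraction. Libraries taken 2 h and 6 h after dTAG-13 share the DMSO controls, and their values are given beside those at 24 h without any further comparison, except for Myc and Gbx2, which are taken up after the main results.

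TRIM28 is a corepressor that is brought to DNA mainly by KRAB zinc finger proteins. It recruits the histone methyltransferase SETDB1, which deposits H3K9me3, and HP1 proteins that bind this mark, and in mESCs it keeps endogenous retroviruses (ERVs) and a set of genes near them silent. TT-SLAM-seq reads transcripts made during a short pulse of 4-thiouridine, enriched with biotin and recognised by T-to-C conversions, so that a change in the rate of transcription is seen without the delay set by mRNA lifetime. Naive pluripotency in serum and LIF rests on transcription factors such as OCT4, SOX2, NANOG, KLF4 and ESRRB, on LIF-STAT3 and BMP signals that sustain self-renewal, and on FGF4-ERK signalling that drives exit from it.

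The authors' FPKM values count T-to-C reads over the whole span of a gene, introns included. Each value was a whole number of reads, and the totals that scaled the values ran from 7293353 to 12601215 reads in DMSO and from 6481999 to 24266191 after 24 h. The genes Gm26917 and Gm42418, which lie on ribosomal RNA sequence, took from 39.8% to 44.7% of the reads in DMSO and from 19.9% to 24.1% after 24 h. FPKM values are relative to all counted reads, these included. Values were divided here by 1 median-of-ratios factor per library (scaled FPKM). This sets the median gene as unchanged, and no spike-in was named that would give absolute levels. The summed level of 6 ESC markers was 35.2 to 41.8 scaled FPKM in DMSO and 20.0 to 24.9 after 24 h. Sox2 made up most of this sum in DMSO, with a mean of 21.8 there and 8.44 after 24 h. Of the 6, only Nanog had a higher mean after 24 h, 3.63 against 3.06. The sum of 8 feeder fibroblast markers stayed at or below 0.357 scaled FPKM in every library, with Lum at 0 in all 6, and none of the endoderm or trophoblast markers reached the level for a test. The study's text calls the replicates technical in one place and biological in another, so that p-values measure the spread between these samples, which may be technical.

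After 24 h, 77 genes were higher (0.675% of the 11404 tested) and 170 were lower (1.49%) by more than 2-fold at an adjusted p below 0.05. Among the risers were Cthrc1, Sfi1, Fos, Egr1, Irf1 and Ccng2. Among the fallers were the transcription factor genes Mycn, Foxd3, Nr0b1, Sox2 and Klf4 and the metallothionein genes Mt1 and Mt2. Without the 2-fold limit, 1710 genes were higher (15.0%) and 2306 were lower (20.2%). The 2-fold limit acts on log2(scaled FPKM + 0.5), and because most genes had a level near 1 FPKM, whose median in DMSO was 1.11, it leaves out many changes at low level: a fit on the reads themselves (limma voom) called 417 genes higher (3.66%) and 420 lower (3.68%). At an unadjusted p under 0.05, 2267 genes were higher (19.9%) and 3022 lower (26.5%), and the counts of list members at that p are to be read against these shares. The balance of the 2 directions rested on the scaling. On the deposited FPKM the median of all genes was at 0.21 on the log2 scale, against -0.05 after scaling, and 239 genes were higher and 74 lower, so that 76.4% of the changed genes were higher against 31.2% after scaling. Changes below are relative to the median gene.

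**Figure D1:**
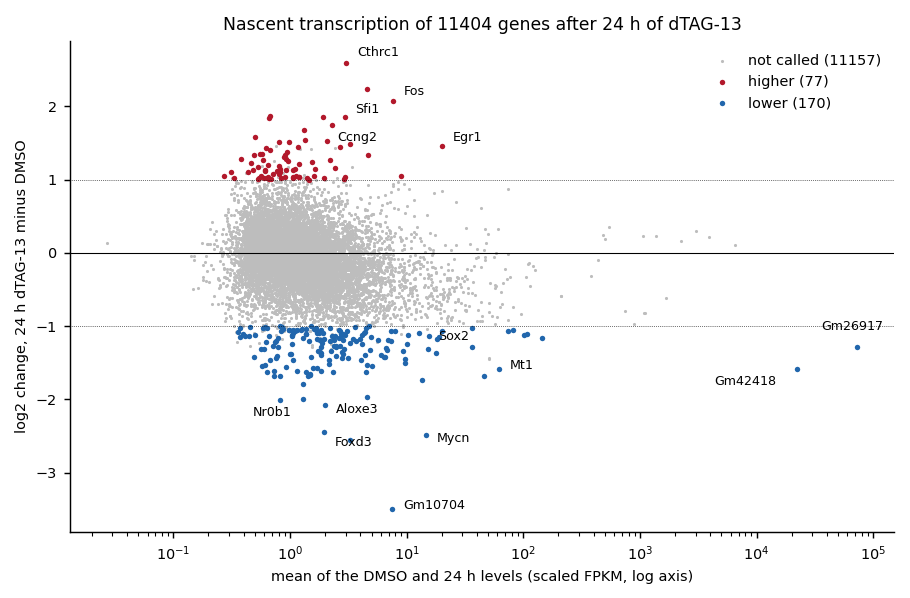
Log2 change in nascent transcription (24 h dTAG-13 minus DMSO, on log2(scaled FPKM + 0.5)) against the mean of the DMSO and 24 h levels in scaled FPKM on a log axis, 1 point for each of 11404 genes. Red points are the 77 genes called higher, blue points the 170 called lower, and dotted lines mark 2-fold. Falls reach up to the highest levels, with Gm26917 and Gm42418 at the far right, whereas most rises lie at low levels.

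The direction of change went with the level. Among 5177 genes with a mean under 1 FPKM over the 12 libraries, the median log2 change was 0.05, with 49 genes higher and 38 lower. Among the 319 genes above 10 FPKM the median was -0.47, with 1 gene higher (Egr1) and 25 lower. Change also went with gene length. The median log2 change was -0.03 for genes of 200 bp to 1 kb and -0.13 from 1 to 5 kb. It was -0.14 from 5 to 20 kb, 0.01 from 20 to 100 kb and 0.18 over 100 kb. Of genes from 1 to 5 kb, 3.48% were called lower, against 0.107% from 20 to 100 kb. Genes above 10 FPKM had a median length of 3006 bp, against 13350.5 bp for all genes, and level and length were not separated. Libraries did not contribute evenly to the falls. DMSO replicate 1 was the highest of the 3 controls for 110 of the 170 lower genes (64.7%, against 32.5% of all genes tested) and DMSO replicate 3 was the lowest for 114 (67.1%, against 34.4%). Without DMSO replicate 3 the count of lower genes was 272. The values of each library are given for the main genes below, with the calls that end when a library is left out.

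Trim28 itself had 2.05, 1.84 and 2.08 scaled FPKM in the 3 DMSO libraries and 1.16, 1.10 and 1.08 after 24 h. The groups did not overlap, and the log2 change was -0.62 ± 0.05 (SE, adjusted p = 0.000108), short of 2-fold. The degron removes the protein, so that transcription of the gene does not check the depletion.

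Of 28 tested members of a list of core and naive pluripotency genes, 6 fell (21.4%, against 1.49% of all genes), none rose, and the median log2 change was -0.57 against -0.05 for all genes. At the adjusted p alone, 19 were lower and none were higher. Voom called 7 lower and 0 higher, and 22 were lower and 0 higher at an unadjusted p under 0.05. In these bulk samples, fewer cells of a type and less RNA per cell cannot be told apart.

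The largest fall among them on the log2(scaled FPKM + 0.5) scale was that of Mycn (chr12:12936093-12941914 in mm10, minus strand), which encodes N-MYC, a driver of proliferation and biosynthesis in mESCs. Its level was 30.0, 24.8 and 20.2 scaled FPKM in DMSO and 4.39, 3.50 and 4.20 after 24 h. The treated libraries lay far below all controls, with a mean 6.21-fold lower (log2 change -2.48 ± 0.16, adjusted p = 3.64e-05). At 2 h and 6 h its log2 change was 0.46 and -0.70. Nr0b1, which encodes the orphan nuclear receptor DAX1, a partner of the OCT4 network, went from 2.72, 2.58 and 1.85 to 0.252, 0.246 and 0.150. Its mean was 11.0-fold lower, and the log2 change of -2.0 ± 0.12 understates this because the treated level is below the 0.5 that was added (adjusted p = 3.52e-05).

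Sox2 (chr3:34650405-34652461), the partner of OCT4 at pluripotency enhancers, had 24.1, 23.3 and 18.0 scaled FPKM in DMSO and 8.03, 7.73 and 9.56 after 24 h. All treated values were below all controls (log2 change -1.31 ± 0.16, adjusted p = 0.000484). Sox2 lies within Sox2ot on the same strand, so that reads of the host count for both. Klf4, a LIF-responsive factor of the naive network, had 3.42, 3.35 and 1.79 in DMSO and 0.811, 0.767 and 0.965 after 24 h (log2 change -1.28 ± 0.21, adjusted p = 0.00199). Fgf4, the autocrine ligand that signals through ERK, went from 4.80, 4.21 and 3.96 to 1.38, 1.30 and 1.37 (log2 change -1.38 ± 0.11, adjusted p = 7.77e-05). Tdh, the threonine dehydrogenase on which mouse ESCs depend, fell as well, by 1.20 on the log2 scale. For these 4 genes the treated and control libraries did not overlap, and all 4 were still called when any library was left out. On the deposited FPKM, Sox2, at -0.96, and Tdh, at -0.93, were short of 2-fold.

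Other members moved less than 2-fold. Gdf3 had a log2 change of -0.99 (adjusted p = 0.00675), Sall1 of -0.87 (6.55e-05), Sall4 of -0.85 (0.00273), Zfp42 of -0.68 (0.000447) and Esrrb of -0.38 (0.0368). Pou5f1, which encodes OCT4, had 4.43, 4.78 and 6.58 scaled FPKM in DMSO and 3.46, 3.73 and 3.79 after 24 h. Its groups did not overlap, but the change of -0.45 ± 0.16 missed the threshold (adjusted p = 0.0575). Nanog, another core factor, had 3.18, 3.25 and 2.74 in DMSO and 3.14, 2.85 and 4.89 after 24 h. Its groups overlapped, with a log2 change of 0.18 ± 0.24 (adjusted p = 0.600). Of these 3 core factor genes, Sox2 passed the test and Pou5f1 and Nanog did not, and the differences among them were not tested.

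**Figure D2:**
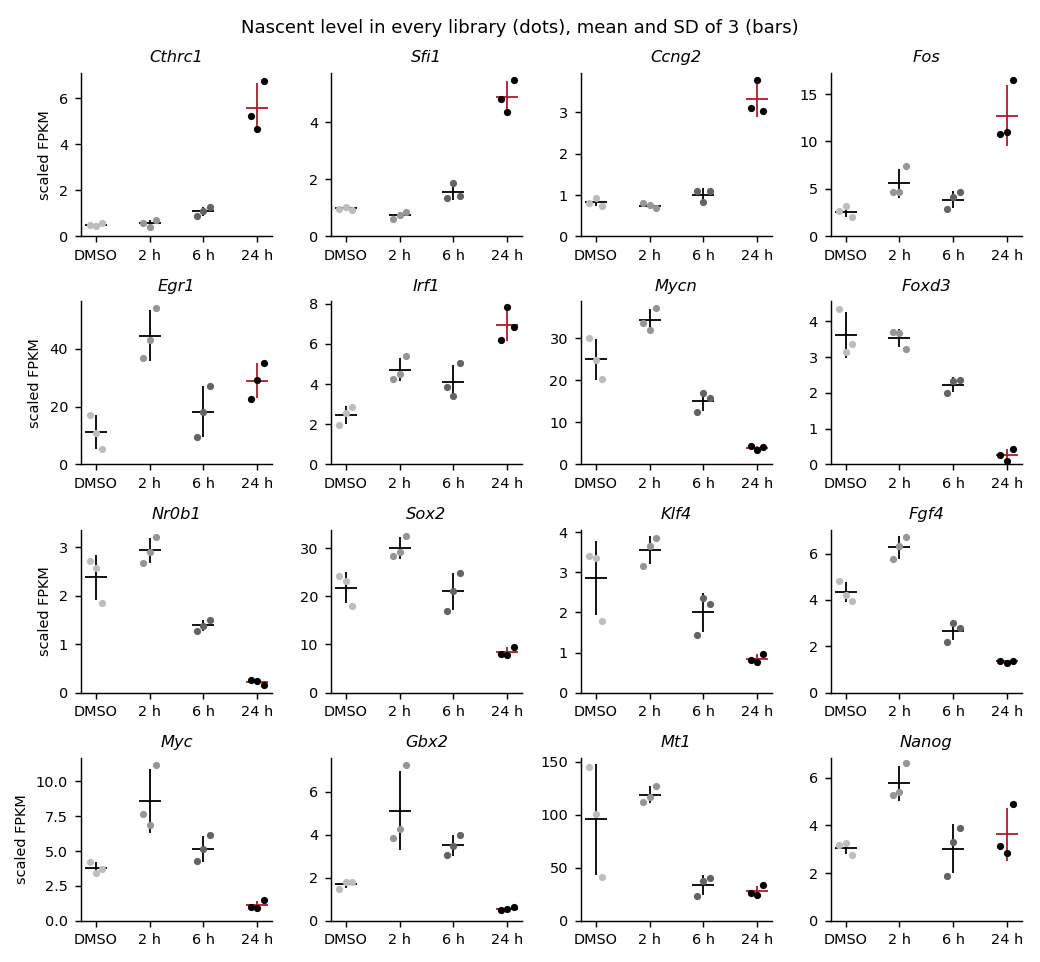
Scaled FPKM of 16 genes in every library of the nascent time course. Dots are libraries (grey for DMSO, 2 h and 6 h, black for 24 h), horizontal bars are means and vertical bars SDs of 3 libraries, and each panel has its own axis from 0. At 24 h the libraries of Cthrc1, Sfi1, Ccng2, Fos, Egr1 and Irf1 all lie above the DMSO libraries, those of Mycn to Gbx2 and Mt1 all lie below, and those of Nanog overlap them.

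Genes of the formative and primed epiblast, the states that follow naive pluripotency, did not rise either. Of 19 tested, 3 fell (15.8%, against 1.49% of all genes) and none rose, at a median log2 change of -0.63. Voom called 7 lower and 0 higher, and 14 were lower and 0 higher at an unadjusted p under 0.05. Foxd3 (chr4:99656299-99658622), a forkhead factor needed to maintain mESCs, had 4.34, 3.15 and 3.36 scaled FPKM in DMSO and 0.257, 0.102 and 0.431 after 24 h. Between 6 and 17 reads remained per treated library, against 71 to 87 in DMSO, and the mean was 13.7-fold lower (log2 change -2.44 ± 0.16, adjusted p = 3.52e-05). The ETS factor gene Etv4, an ERK target, fell by 1.14 on the log2 scale.

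The FGF-ERK list changed in both directions. Of 21 tested members, 4 fell (Fgf4, Phlda1, Etv4, Spry2) and 3 rose (Fos, Egr1, Il17rd). The shares were 19.05% lower and 14.29% higher, against 1.49% and 0.675% of all genes. The median log2 change was -0.30 and was 0.00 on the deposited FPKM. Voom called 3 higher and 6 lower, and 4 were higher and 11 lower at an unadjusted p under 0.05. Spry2, which encodes an inhibitor induced by the pathway, had 11.7, 9.0 and 9.57 scaled FPKM in DMSO and 4.78, 3.65 and 5.32 after 24 h (log2 change -1.06, adjusted p = 0.00114). Without DMSO replicate 1 or without 24 h replicate 2 it stayed below 2-fold. Feedback members that did not pass were Spry4, at -0.94, and Dusp6, which encodes the ERK phosphatase, at -0.55. Il17rd, which encodes the pathway inhibitor SEF, rose from 1.07, 1.17 and 1.08 to 2.84, 2.89 and 2.63 (log2 change 1.03 ± 0.07, adjusted p = 4.38e-05). It had already risen by 0.72 at 2 h and by 0.87 at 6 h on the log2 scale, short of 2-fold. Outside this list, and chosen after its values were seen, the ligand gene Fgf15 went from 1.51, 1.26 and 1.29 to 0.310, 0.188 and 0.113 and fell by 1.40 on the log2 scale.

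Among 17 tested genes of the LIF-STAT3 list, Klf4, Myc and Gbx2 fell (17.6%, against 1.49% of all genes) and none rose. Voom called 1 higher and 3 lower, and 2 were higher and 8 lower at an unadjusted p under 0.05. Myc (chr15:61985391-61990374), the transcription factor gene shared with the Wnt target and immediate early lists, had 4.22, 3.43 and 3.70 scaled FPKM in DMSO and 1.02, 0.899 and 1.48 after 24 h. Its groups were well apart (log2 change -1.40 ± 0.20, adjusted p = 0.000893). Gbx2, a homeobox gene downstream of STAT3, went from 1.50, 1.80 and 1.83 to 0.490, 0.553 and 0.661 (log2 change -1.05 ± 0.19, adjusted p = 0.00330). It was short of 2-fold on the deposited FPKM, at -0.82, and without 24 h replicate 1, at -0.995. The cytokine kinase gene Jak1 had a log2 change of 0.47 (adjusted p = 0.000517) and Junb of 0.95 (0.00415). Myc was also the 1 of 8 tested Wnt targets that fell (12.5%, against 1.49% of all genes). In the MYC network, Mycn and Myc were the only 2 of 9 tested members that fell by more than 2-fold (22.2%, against 1.49% of all genes). Mxi1, which encodes a MYC antagonist, had a log2 change of 0.72 (adjusted p = 0.000365).

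In the BMP-Id list, Id2 fell, 1 of 12 tested (8.33%, against 1.49% of all genes), and none rose. The median log2 change of the list was 0.11, against -0.05 for all genes. Voom called 1 higher and 2 lower, and 4 were higher and 4 lower at an unadjusted p under 0.05. ID proteins block differentiation factors of the bHLH class downstream of BMP. Id2 went from 8.98, 7.43 and 4.79 scaled FPKM to 2.31, 1.42 and 2.59 (log2 change -1.53 ± 0.26, adjusted p = 0.00227). Id1, at -0.75 (adjusted p = 0.0450), and Id3, at -0.65 (0.00989), were short of 2-fold. The 16 tested members of the Nodal signalling list had a median log2 change of 0.15. In limma 1 of them rose (6.25%, against 0.675% of all genes) and none fell. Voom called 2 higher and 0 lower, and 6 were higher and 4 lower at an unadjusted p under 0.05. Nodal itself had a log2 change of 0.55 (adjusted p = 0.00239) and the signal transducer gene Smad3 of 0.58 (0.000168), against -0.75 for the antagonist gene Lefty1 (0.00422).

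Immediate early genes, which respond to stimuli without new protein synthesis, included 2 of the larger rises. Of 22 tested, Fos and Egr1 rose (9.09%, against 0.675% of all genes) and Myc fell (4.55%, against 1.49%). At the adjusted p alone, 9 were higher and 3 lower, and voom called 4 higher and 2 lower. Fos (chr12:85473890-85477273), the AP-1 subunit gene, had 2.65, 3.16 and 2.03 scaled FPKM in DMSO and 10.8, 11.0 and 16.5 after 24 h. Every treated library was above every control, with a mean 4.88-fold higher (log2 change 2.08 ± 0.24, adjusted p = 0.000414). At 2 h its log2 change was 0.95 and at 6 h 0.48. Its promoter, from RefSeq on GRCm38.p6 (chr12:85473640-85473939, plus strand, 250 bases before to 50 after the start), is shown because H3K27Ac, RNAPII and MED23 peaks lay at this start in every library of both groups, with the single match of the TATA box letters TATAAA in capitals, which 13.6% of 32851 promoters of this length hold on either strand.

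Fos promoter: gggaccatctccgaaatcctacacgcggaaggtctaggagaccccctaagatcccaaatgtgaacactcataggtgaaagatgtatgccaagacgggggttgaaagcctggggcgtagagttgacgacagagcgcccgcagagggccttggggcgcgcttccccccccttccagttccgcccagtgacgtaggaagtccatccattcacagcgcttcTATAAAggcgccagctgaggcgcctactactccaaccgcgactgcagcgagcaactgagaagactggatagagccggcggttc

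Egr1, a zinc finger factor gene of the same class, was the highest riser by level. It had 17.1, 10.9 and 5.46 scaled FPKM in DMSO and 22.8, 29.4 and 35.0 after 24 h. The groups did not overlap, but the controls spread over more than 3-fold and the call (log2 change 1.45 ± 0.44, adjusted p = 0.0302) was lost in 4 of the 6 fits that left out a library, with log2 changes from 1.04 to 1.82, and in a fit of the 6 libraries alone (adjusted p = 0.0609). Egr1 was at 2.07 at 2 h and 0.70 at 6 h on the same scale. Junb, at 0.95, and Jund, at 0.97, were short of 2-fold. Irf1, the interferon-regulatory factor gene, was the 1 member of 13 tested interferon and nucleic acid sensing genes that rose, from 1.96, 2.55 and 2.85 to 6.19, 7.81 and 6.83 (log2 change 1.34 ± 0.16, adjusted p = 0.000431). The share of that list that rose was 7.69%, against 0.675% of all genes. Voom called 2 of its members higher and 0 lower, and 4 were higher and 0 lower at an unadjusted p under 0.05.

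The largest rise on the log2(scaled FPKM + 0.5) scale was that of Cthrc1 (chr15:39076932-39087121, plus strand), which encodes a secreted collagen triple helix protein. It had 0.474, 0.430 and 0.587 scaled FPKM in DMSO, from 34 to 62 reads per library, and 5.25, 4.68 and 6.77 after 24 h, from 551 to 1523 reads. Every treated library was far above every control, with a mean 11.2-fold higher (log2 change 2.59 ± 0.15, adjusted p = 3.52e-05). At 2 h its log2 change was 0.08 and at 6 h 0.67. Sfi1, which encodes a centrosomal spindle protein, went from 0.971, 1.03 and 0.938 to 4.81, 4.38 and 5.48 (log2 change 1.86 ± 0.11, adjusted p = 3.52e-05). The pseudogene Gm11400 lies inside Sfi1 on the same strand and rose with it, by 2.24 on the log2 scale, and the counting gave shared reads to both.

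Several further rises were protein-coding genes, and they were chosen after their values were seen, apart from Ccng2, among the 12 largest rises, and Ddit4, a member of the amino acid and stress response list. Ccng2, which encodes cyclin G2, an inhibitor of cell cycle progression, went from 0.808, 0.929 and 0.731 scaled FPKM to 3.11, 3.79 and 3.04. Its libraries were clearly separated (log2 change 1.53 ± 0.10, adjusted p = 3.53e-05). Ddit4, whose product restrains mTORC1, went from 4.86, 6.07 and 6.02 to 13.04, 10.8 and 12.9 (log2 change 1.05 ± 0.12, adjusted p = 0.000414). Pik3ip1, whose product inhibits PI3K, rose by 1.22 on the log2 scale.

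Bnip3 and Pink1, whose products take part in mitophagy, rose as well. Bnip3 went from 0.791, 0.852 and 0.847 to 2.67, 2.38 and 2.29, a log2 change of 1.15 (adjusted p = 3.52e-05). Pink1 had a log2 change of 1.01 (adjusted p = 0.000292), and its call was lost without DMSO replicate 3 and without 24 h replicate 2. The BH3-only gene Bmf had a log2 change of 1.02 and a mean 3.90-fold higher. Pdk4, the kinase gene that shuts pyruvate out of the mitochondrion, had 1.12 and a mean 4.16-fold higher. P4ha1, which encodes a collagen prolyl hydroxylase, had 1.10, and the HIF prolyl hydroxylase gene Egln1 had 1.03. The call of Egln1 was lost without DMSO replicate 1 and without 24 h replicate 1, where its log2 change was 0.94, and that of Bmf without DMSO replicate 2, at 0.99. Ddit4 was short of 2-fold without DMSO replicate 1 and Pik3ip1 without DMSO replicate 3. For all of these the 3 treated libraries were above the 3 controls, as they were for 73 of the 77 higher genes, against 20.7% of all genes tested. In the same way 168 of the 170 lower genes did not overlap, against 27.8%. These genes were called on the same libraries, so that this separation follows largely from the call and is no separate support.

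Distance to an ERV was read from the study's coordinates of 780 full-length MMERVK and 445 full-length MMETn elements. IAP elements were not used here. Of 71 tested genes that start within 10 kb of such an element, 4 rose (5.63%, against 0.675% of all genes) and none fell. At an unadjusted p under 0.05, 20 of them were higher and 14 lower, against 19.9% and 26.5% of all genes, and voom called 6 higher and 1 lower. Between 10 and 50 kb, 7 of 285 rose (2.46%) and 3 fell. A gene was tested with at least 0.5 scaled FPKM in 3 of the 12 libraries. One that is near 0 elsewhere can thus enter through its 24 h libraries alone, and it can then only be called higher. From 50 to 100 kb, 0 of 382 rose and 6 fell, while voom called 16 higher and 14 lower and 75 were higher and 108 lower at an unadjusted p under 0.05, shares near those of all genes. Beyond 100 kb, or with no such element on the chromosome, 66 of 10666 rose (0.619%) and 161 fell.

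The 4 near genes were Cthrc1, 2856 bp away, the processed pseudogene Gm13194 at 2479 bp, Cd59a at 4496 bp and the lincRNA gene Gm4316 at 7340 bp. Cd59a, which encodes an inhibitor of the complement attack complex, went from 0.640, 0.676 and 0.518 scaled FPKM to 1.82, 1.87 and 1.64 (log2 change 1.04 ± 0.08, adjusted p = 8.22e-05), and its call was lost without DMSO replicate 3. Gm4316, which lies inside Gm20388, went from 0.347, 0.405 and 0.329 to 1.56, 1.32 and 1.84 (log2 change 1.26 ± 0.09). Gm13194 had 0, 2 and 0 reads in DMSO and 19, 10 and 2 after 24 h, so that its call rested on few reads and was lost in 4 of 6 fits without a library. Between 10 and 50 kb lay Pdk4 and P4ha1, described above, and Cyp2b23, a cytochrome P450 gene. Cyp2b23 had 7, 10 and 10 reads in DMSO and 303, 411 and 97 after 24 h. It stayed below 0.5 scaled FPKM in every DMSO, 2 h and 6 h library and so was tested through its 24 h libraries alone. Its mean was 13.9-fold higher although its log2 change, held down by the added 0.5, was 1.03 and was short of 2-fold without 24 h replicate 2.

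**Figure D3:**
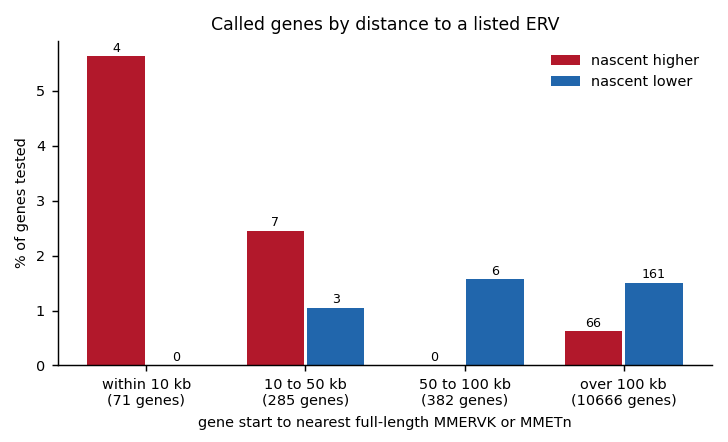
Share of tested genes called higher (red) or lower (blue) after 24 h, by the distance of the gene start to the nearest full-length MMERVK or MMETn element of the study's lists. Numbers above the bars count the genes. The share of higher genes is 5.63% within 10 kb and 2.46% from 10 to 50 kb, and the numbers of genes behind these bars are small (4 of 71 and 7 of 285).

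Genes of the silencing pathway itself moved little. Of 31 tested members of the TRIM28 list, Zfp57 fell (3.23%, against 1.49% of all genes) and none rose. The median log2 change of the list was -0.19 and was 0.14 on the deposited FPKM. Voom also called 1 lower and 0 higher, and at an unadjusted p under 0.05 there were 4 higher and 13 lower. Zfp57, which encodes the KRAB zinc finger protein that guards imprints, had 7.76, 6.55 and 6.91 scaled FPKM in DMSO and 2.67, 2.88 and 3.16 after 24 h (log2 change -1.15 ± 0.10, adjusted p = 0.000124). It was also the 1 gene called among 140 tested KRAB zinc finger genes (0.714%, against 1.49% lower of all genes). Their median log2 change was 0.02, and voom called 3 higher and 2 lower. At an unadjusted p under 0.05, 41 of the 140 were higher and 24 lower, against 19.9% and 26.5% of all genes. Among 29 imprinted genes none passed in limma, 8 were higher and 9 lower at an unadjusted p under 0.05 (19.9% and 26.5% of all genes), and voom called 1 in each direction. In limma none of 44 Mediator and RNAPII subunit genes, 14 DNA methylation genes and 18 p53 targets passed. At an unadjusted p under 0.05 these lists had 2, 4 and 4 genes higher and 18, 6 and 4 lower, and voom called 0, 0 and 1 higher and 1, 0 and 0 lower. Lineage genes were largely untested. None of 5 endoderm genes, 3 primitive streak and mesoderm genes and 1 tested gene of the 2-cell stage passed in limma, with 0, 1 and 0 higher and 2, 0 and 0 lower at an unadjusted p under 0.05 and 0, 1 and 0 higher by voom. Of 8 trophoblast genes Id2 fell (12.5%) and of 12 neural genes Gbx2 fell (8.33%), against 1.49% of all genes, both described above. The median log2 changes of these lists were -0.40 and -0.06. At an unadjusted p under 0.05 they had 1 and 2 genes higher and 5 and 4 lower, and voom called 0 and 1 higher and 2 and 3 lower.

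Genes nearest to the study's 231 super-enhancers, dense clusters of enhancers at genes of cell identity, were tested in 180 cases. Of these 11 fell (6.11%, against 1.49%) and 1 rose, Ddit4. The 11 were Klf4, Tdh, Spry2, H2-M5, Gadd45a, Mycn, Ssr2, 2410080I02Rik, Fgf4, Sox2 and C330002G04Rik. The median log2 change over the 180 was -0.10, against -0.05 for all genes. Gadd45a, a stress-responsive growth arrest gene, went from 14.4, 13.7 and 14.6 scaled FPKM to 5.20, 5.69 and 6.31 (log2 change -1.24 ± 0.12, adjusted p = 0.000198). H2-M5, a nonclassical MHC class I gene, went from 2.93, 3.47 and 1.99 to 0.558, 0.709 and 0.526 (log2 change -1.56 ± 0.19, adjusted p = 0.000447). Most genes of this group were therefore not called at 24 h. Of the 180, 62 were lower and 30 higher at the adjusted p alone, against 20.2% and 15.0% of all genes. At an unadjusted p under 0.05, 74 were lower and 40 higher, against 26.5% and 19.9%. Voom called 20 of them lower and 4 higher, against 3.68% and 3.66%.

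**Figure D4:**
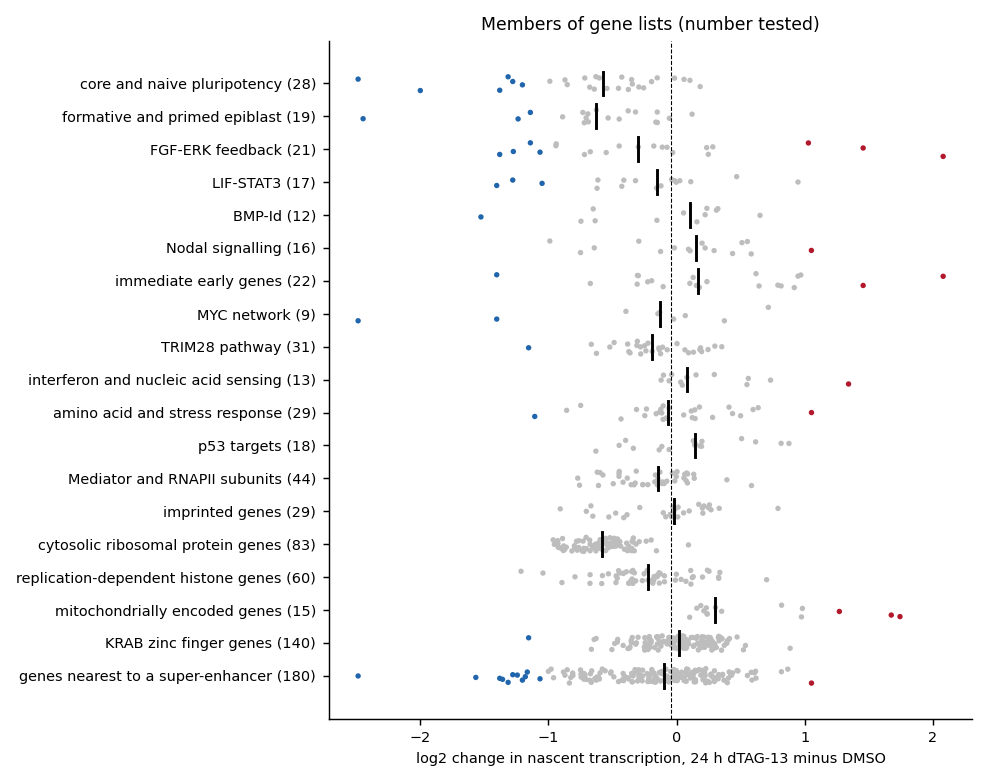
Log2 change at 24 h for the tested members of 19 gene lists, 1 point per gene, with the number tested after each name. Red and blue points are genes called higher and lower, thick bars are list medians and the dashed line is the median of all genes tested at -0.05. The pluripotency, epiblast and ribosomal protein lists lie to the left, at medians of -0.57, -0.63 and -0.58.

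Ribosomal protein genes moved together by less than 2-fold. None of 83 tested cytosolic ones passed the 2-fold limit in limma or in voom, but 69 were lower at the adjusted p alone, 75 at an unadjusted p under 0.05, and their median log2 change was -0.58. On the deposited FPKM the median was -0.23. Rps9, for example, had 60.0, 59.6 and 54.8 scaled FPKM in DMSO and 33.1, 31.5 and 26.7 after 24 h (log2 change -0.93, adjusted p = 0.000505), and Rps12 was at -0.74 (0.00162). These genes had a median of 24.9 scaled FPKM in DMSO and a median length of 3289 bp. Among all genes above 10 FPKM, 45 of 319 had a log2 change above 0. The 60 replication-dependent histone genes, at a similar level, had a median of -0.23 that was 0.12 on the deposited FPKM, and none was called by limma. Among them 1 was higher and 2 were lower at an unadjusted p under 0.05, and voom called 1 lower.

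Further fallers were chosen after their values were seen. Nop10, a core protein of H/ACA snoRNPs, went from 17.9, 13.7 and 11.6 scaled FPKM to 4.94, 3.78 and 6.15 (log2 change -1.45 ± 0.25, adjusted p = 0.00235). Rpp25 and Rpp38, which encode RNase P and MRP subunits, fell by 1.54 and 1.08. The RNA helicase gene Ddx21 fell by 1.00 and Emg1, the rRNA methyltransferase gene, fell by 1.02, both at the limit of 2-fold. Srm, the spermidine synthase gene, went from 5.01, 3.81 and 4.01 to 1.20, 1.37 and 1.18 (log2 change -1.44 ± 0.17, adjusted p = 0.000391). The snoRNA hosts Dancr and Snhg3 fell by 1.28 and 1.02, and the snoRNA genes Snora73a and Snora73b fell by 1.11 and 1.13. Snora73a and Snora73b lie inside Rcc1 and share its reads. On the deposited FPKM these 4, at -0.92, -0.66, -0.74 and -0.76 in that order, were short of 2-fold, as were Rpp38, Ddx21 and Emg1. The call of Snhg3 was also lost by voom, at -0.95, and in 3 of 6 fits without a library (DMSO replicate 1, DMSO replicate 2 or 24 h replicate 2). Those of Ddx21 and Emg1 were lost in 2 such fits, without 24 h replicate 2 and without DMSO replicate 1 or 2, and that of Rpp38 without 24 h replicate 2.

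Also chosen after their values were seen were 7 genes for mitochondrial proteins, which are no list tested as such. Tomm5, a small subunit of the outer membrane translocase, had 10.9, 11.1 and 7.77 scaled FPKM in DMSO and 4.20, 2.69 and 4.09 after 24 h (log2 change -1.33 ± 0.18, adjusted p = 0.000794). Tomm22, the receptor subunit, had a log2 change of -1.12 and Tomm7 of -1.03. Timm10, an intermembrane space chaperone gene, had -1.27, and Chchd4, the oxidoreductase gene of the same import route, had -1.18. The respiratory chain subunit gene Ndufb4 was at -1.04 and the mitochondrial ribosome gene Mrps18b at -1.32. In all 7 the treated libraries were below the controls, but on the deposited FPKM all 7 were short of 2-fold, with Tomm7 at -0.77 and Mrps18b at -0.998. The call of Ndufb4 was lost without 24 h replicate 2, at -0.99. Tomm7 stayed called in only 3 of the 6 fits that left out a library, and its log2 changes there ran from -1.16 to -0.92.

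Metallothioneins bind zinc and copper and are induced by metals through the factor MTF1. Mt1 had 145, 101 and 41.2 scaled FPKM in DMSO and 26.3, 24.1 and 33.8 after 24 h. The groups did not overlap, but the controls spread over more than 3-fold, with DMSO replicate 3 close to the treated libraries (log2 change -1.59 ± 0.40, adjusted p = 0.0142). Mt2 had the same pattern, with 104, 73.1 and 37.0 in DMSO and 17.4, 17.4 and 26.9 after 24 h (log2 change -1.68 ± 0.34, adjusted p = 0.00480). Both calls held when any library was left out, with log2 changes from -2.10 to -1.20 for Mt1, but that of Mt1 was lost in a fit of the 6 libraries alone (adjusted p = 0.0675). Both genes had a log2 change of about the same size at 6 h already, -1.35 for Mt1 and -1.32 for Mt2. The promoters of these neighbours, which moved together, are given from RefSeq on GRCm38.p6, Mt1 at chr8:94178839-94179138 and Mt2 at chr8:94172368-94172667, both on the plus strand. Capitals mark matches of the core of the metal response element, TGCGCNC or TGCACNC, on either strand, of which Mt1 holds 3 and Mt2 holds 4.
Mt1 promoter: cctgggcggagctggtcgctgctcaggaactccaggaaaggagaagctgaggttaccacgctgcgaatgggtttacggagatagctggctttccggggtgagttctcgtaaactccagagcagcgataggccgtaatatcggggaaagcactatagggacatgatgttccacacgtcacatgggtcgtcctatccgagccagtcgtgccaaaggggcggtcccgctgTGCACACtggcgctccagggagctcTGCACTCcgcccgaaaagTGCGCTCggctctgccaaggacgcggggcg
Mt2 promoter: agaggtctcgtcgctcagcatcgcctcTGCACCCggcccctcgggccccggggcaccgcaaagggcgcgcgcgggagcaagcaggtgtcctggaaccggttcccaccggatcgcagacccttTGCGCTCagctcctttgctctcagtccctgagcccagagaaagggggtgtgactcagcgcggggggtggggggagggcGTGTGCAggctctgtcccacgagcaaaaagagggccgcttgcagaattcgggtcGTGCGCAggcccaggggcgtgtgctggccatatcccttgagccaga
At least 1 match stands in 25.7% of the 32851 promoters, at least 3 in 1.97% and at least 4 in 0.517%. Of the promoters matched to changed genes, 13 of 26 for higher genes and 44 of 103 for lower genes hold at least 1. The 32851 promoters include those of many genes that were not tested, so that 25.7% is no like background for these counts.

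Hmox1, Nqo1, Fth1 and Prdx6 were again chosen after their values were seen. Hmox1, which encodes heme oxygenase, had 11.6, 9.77 and 7.33 scaled FPKM in DMSO and 3.31, 2.78 and 3.56 after 24 h (log2 change -1.42 ± 0.15, adjusted p = 0.000277). The quinone reductase gene Nqo1 was at -1.04, the ferritin heavy chain gene Fth1 at -1.14 and the peroxiredoxin gene Prdx6 at -1.10. These 3 were short of 2-fold on the deposited FPKM, as was Nqo1 without 24 h replicate 2 and Fth1 without DMSO replicate 1. Cth, the cystathionine gamma-lyase gene and 1 of 29 tested members of the amino acid and stress response list, went from 2.11, 2.11 and 1.94 to 0.661, 0.612 and 0.792 (log2 change -1.11 ± 0.07, adjusted p = 3.52e-05). In that list Cth was the member that fell (3.45%, against 1.49% of all genes) and Ddit4 the member that rose (3.45%, against 0.675%). Voom called 2 of its members higher and 2 lower, and 8 were higher and 7 lower at an unadjusted p under 0.05. The heat shock and chaperone list had no member called by limma or voom among 16 tested, with 4 higher and 7 lower at an unadjusted p under 0.05.

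The largest fall on the log2(scaled FPKM + 0.5) scale was that of Gm10704 (chr3:88576410-88577139, minus strand), a processed pseudogene that lies antisense within Ssr2. It had 22.8, 11.5 and 8.74 scaled FPKM in DMSO and 0.626, 0.435 and 1.20 after 24 h, with a mean 19.04-fold lower (log2 change -3.50 ± 0.37, adjusted p = 0.000285). Ssr2, the gene of a translocon-associated subunit at the endoplasmic reticulum, fell on the other strand from 4.94, 3.95 and 3.84 to 1.29, 1.28 and 1.46 (log2 change -1.36 ± 0.10, adjusted p = 5.07e-05). Aloxe3, an epidermal lipoxygenase gene, had 5.23, 3.65 and 1.92 in DMSO and 0.587, 0.345 and 0.329 after 24 h (log2 change -2.08 ± 0.36, adjusted p = 0.00259). The antisense gene 0610039K10Rik had a log2 change of -2.55 and the lincRNA gene Gm46332 of -1.68, with a mean 17.3-fold lower. Of the other largest falls, Gm37634 was at -1.96, Gm44067 at -1.78, Gm26654 at -1.74 and C130013H08Rik at -1.68. The call of Gm26654 was lost in 3 of 6 fits without a library (DMSO replicate 1, DMSO replicate 2 or 24 h replicate 2), at adjusted p from 0.0501 to 0.0598. In these 6 noncoding genes, as in Gm10704 and Aloxe3, DMSO replicate 1 had the highest and DMSO replicate 3 the lowest level of the controls. Tex19.1, a germline gene that is also transcribed in mESCs, went from 14.8, 17.7 and 10.8 to 6.05, 6.56 and 6.22 (log2 change -1.11 ± 0.18, adjusted p = 0.00172), a call that was lost without DMSO replicate 2.

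Some of the larger rises rested on few reads. Gm46146 and Gm37939 had 0 reads in all 3 DMSO libraries, and had 13, 14 and 3 and 38, 46 and 11 reads after 24 h. Both reached the level for a test through their 24 h libraries alone. Gm30280, which lies inside Ptpn14, had 0, 1 and 5 reads in DMSO and 28, 21 and 5 after 24 h, and its call was lost in 4 of 6 fits without a library. Gm38122 had 3, 8 and 1 reads and then 56, 64 and 11. The mitochondrially encoded genes mt-Co2, mt-Nd4l and mt-Atp8 rose from 1, 3 and 2, from 2, 4 and 1 and from 0, 0 and 1 reads to 24, 22 and 25, to 27, 23 and 12 and to 6, 4 and 2. They are 3 of 15 tested mitochondrial genes (20%, against 0.675% of all genes), of which all had a log2 change above 0 and the median was 0.30. mt-Rnr1, the small ribosomal RNA gene and far more abundant, had a log2 change of 0.10 ± 0.29 (adjusted p = 0.823). The change of mt-Atp8 was lost in 4 of 6 fits without a library and by voom.

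Steady-state mRNA of the same line was measured by RNA-seq on other libraries, 3 in DMSO and 3 after 24 h. There 1322 genes were higher (7.39% of 17901) and 592 lower (3.31%). Of the genes over 200 bp, 1232 of 17246 were higher and 557 lower, and 9622 genes were tested in both assays. Of the 46 nascent risers tested in both, 28 were also higher in mRNA (60.9%, against 4.67% of the genes tested in both), 1 was lower and 17 were not called. Of the 126 nascent fallers, 56 were also lower (44.4%, against 3.38%), 4 were higher and 66 were not called. In the other direction, 28 of 449 genes higher in mRNA (6.24%) were called higher in nascent RNA, against 0.675% of all genes. Of 325 genes lower in mRNA, 56 (17.2%) were called lower in nascent RNA, against 1.49% of all genes. At the nascent adjusted p alone, 181 of the 449 were higher and 243 of the 325 lower. The shares of all genes at that limit were 15.0% and 20.2%.

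Cthrc1 mRNA rose from 17.1 ± 2.17 to 224 ± 6.15 scaled TPM (mean ± SD, n = 3), a log2 change of 3.68, and Sfi1 mRNA by 3.20. Foxd3 mRNA fell from 28.8 ± 1.66 to 2.04 ± 0.378 scaled TPM, a log2 change of -3.54, and Mycn mRNA had a change of -2.23. The mRNA of Myc had a log2 change of -2.76 and that of Gbx2 of -3.27. Pou5f1 mRNA fell from 1208 ± 32.2 to 499 ± 23.6 scaled TPM (log2 change -1.27, adjusted p = 4.22e-09) while its nascent change did not pass, and Nanog mRNA had a change of 0.38. Sox2 mRNA, at -0.80, and Fgf4 mRNA, at -0.94, stayed within 2-fold although the nascent change did not.

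The single gene with opposite calls among risers was Egr1, whose mRNA fell from 18.2 ± 0.506 to 7.88 ± 0.599 scaled TPM, a log2 change of -1.16. Among fallers, Aloxe3 mRNA rose from 0.606 ± 0.106 to 1.81 ± 0.454 scaled TPM, a log2 change of 1.05, and 3 noncoding or uncharacterised genes went the same way. Hmox1 mRNA had a log2 change of -1.52, Nqo1 -1.53, Tomm5 -1.26 and Timm10 -1.38. Gm26917 and Gm42418, which fell in nascent RNA, had mRNA changes of 0.53 and 0.32 that did not pass. Their nascent calls were lost with no filter (adjusted p = 1 and 0.855) and with a filter of at least 10 reads in 3 libraries (0.674 and 0.295). The mRNA libraries were scaled separately, so that levels are not set against each other across the 2 assays.

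**Figure D5:**
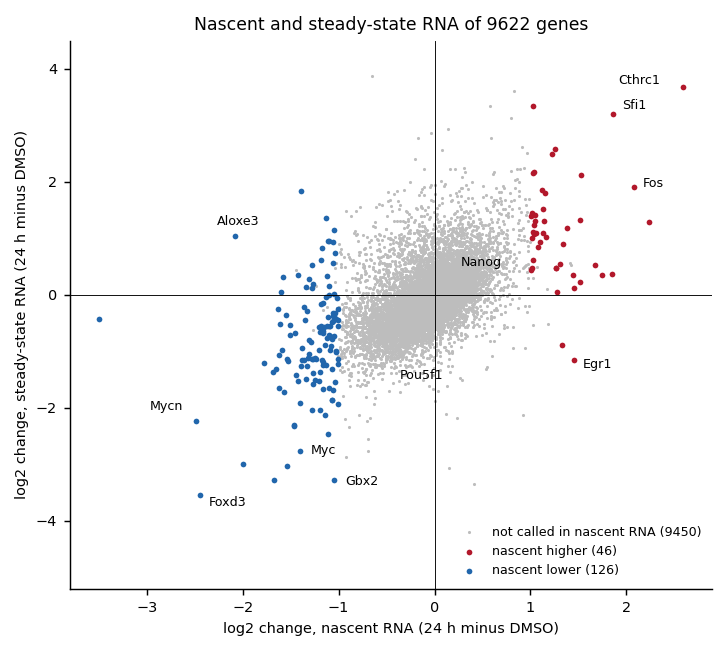
Log2 change in steady-state RNA (RNA-seq) against log2 change in nascent RNA (TT-SLAM-seq) at 24 h for 9622 genes tested in both. Red and blue points are the 46 nascent risers and 126 nascent fallers. Cthrc1, Sfi1 and Fos lie high in both, Mycn and Foxd3 low in both, and Egr1 and Aloxe3 have opposite signs in the 2 assays.

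ChIP-seq peaks of the same line, called per library, were read at the starts of the changed genes (2 kb on either side, with the same number of strongest peaks from every library of a mark). H3K9me3, the mark laid down through TRIM28, was at 5, 7 and 6 of the 77 risers in DMSO and at 1 in each library after 24 h. The mean share went from 7.79% to 1.30%, without overlap between the groups (two-sided exact permutation test, p = 0.1, the smallest that 3 against 3 allows). Over all genes tested it went from 0.845% to 0.199%, and among fallers from 0.196% to 0%, where 0 of 170 genes had a peak in any treated library. Risers that lost the peak in all 3 libraries were Gm13194, Gm37954 and Gm46146, and Pink1, Gm4316 and Gm45512 had it in 2 DMSO libraries and in none after 24 h. Cthrc1, Fos and Sfi1 had no such peak at their start in DMSO. Sfi1 had one in 1 treated library, and Gm10478 had it in 3 DMSO and 2 treated libraries. The number of deposited H3K9me3 peaks was 11474, 105690 and 147611 in the treated libraries against 104579 to 126470 in DMSO.

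MED23, a Mediator subunit, was at 52.4% and 51.2% of the 170 fallers in DMSO and at 30.0% in both treated libraries, against 33.7% and 17.3% of all genes on average. The groups did not overlap, but with 2 libraries each the exact permutation test cannot go below 0.333. The authors' caller gave 63045 and 58925 MED23 peaks in DMSO against 15335 and 14551 after 24 h, and 19853 and 19194 RNAPII peaks against 8182 and 7689, so that the strongest peaks were drawn from lists of unequal length. RNAPII was at a mean of 50.9% of fallers in DMSO and 49.1% after 24 h, against 51.5% and 42.3% of all genes. H3K27Ac, a mark of active promoters, was at 50.6%, 51.8% and 54.1% of fallers in DMSO and at 44.7%, 49.4% and 30.0% after 24 h (exact permutation p = 0.1). Over all genes the share was 49.6% to 51.5% in DMSO and 35.5%, 53.9% and 24.4% after 24 h, a mean difference of -12.3 percentage points (exact permutation p = 0.4). Without the last of these libraries the difference among fallers was -5.10 percentage points, against -10.8 with it. At the risers these marks were rare in both groups, with means of 10.8% and 9.52% for H3K27Ac, 11.7% and 12.3% for RNAPII and 16.2% and 10.4% for MED23.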

How the data were processed

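TT-SLAM-seq, RNA-seq and ChIP-seq files of TRIM28-FKBP mESCs were used. For nascent RNA the authors trimmed reads with cutadapt 2.4, removed rRNA reads with STAR 2.7.5a, aligned to mm10 and separated T-to-C reads with SLAM-DUNK 0.4.1, and counted them per gene by strand with htseq-count 0.11.4, giving a read to every gene it overlaps. The deposited FPKM values divide these reads by gene span and library total. All values came out as whole reads within 0.01. For RNA-seq the authors deposited TPM (used) and FPKM (not used for tests) from StringTie 2.0.6. Peak files hold the fold enrichment over background (a ratio) that the authors' peak caller gave per library.

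FPKM and TPM were divided by median-of-ratios factors over 19252 and 20273 genes. Genes with at least 0.5 scaled FPKM (1 scaled TPM) in 3 libraries were tested on log2(value + 0.5) with limma 3.58.1 in R 4.3.3 (trended variance), 12 nascent libraries (15 for RNA-seq) in 1 fit, with Benjamini-Hochberg adjustment over all genes tested. Changed genes had an adjusted p below 0.05 and a change above 2-fold. The test was checked on simulated data. The 10000 strongest peaks per library (7689 for RNAPII) were overlapped by at least 1 bp with gene starts, and shares were compared by exact permutation. Symbols came from the StringTie tables, and 53488 of 54435 genes had the same position in GENCODE vM21. KRAB genes were found by translating vM21 transcripts.

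Genes named are the 12 largest rises and falls whose groups do not overlap and that have at least 10 mean reads in the higher group, the changed list members, 9 genes of interest (Trim28, Cthrc1, Klf4, Sox2, Mycn, Fgf4, Sall1, Nanog, Pou5f1) and up to 3 unchanged members per list with the highest DMSO level. All others were chosen after their values were seen. The members and lists were chosen with earlier results of these data known. Same-numbered replicates did not deviate together (r = 0.0154, -0.0241 and -0.0502), so no block was used. Alternatives were other scalings, pseudocounts, filters, voom on the recovered reads, a replicate block and leaving out each library. Precision rests on 3 libraries per group. Files of the other experiments in the series were not used here. Some results on withheld items are not reported here.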

Additional observations from a re-analysis of the deposited data

Results flagged for a closer look

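Myc and Gbx2 drew attention because their change from DMSO had opposite directions at 2 h and at 24 h. They were picked for calls above 2-fold in opposite directions at these times. A difference between 24 h and 2 h in the same limma fit follows from this choice and is no separate support. Myc had a log2 change of 1.06 at 2 h (adjusted p = 0.0123) and of -1.40 at 24 h, a difference of -2.46 ± 0.20 (SE, adjusted p = 4.54e-05). Gbx2 had a log2 change of 1.30 at 2 h (adjusted p = 0.00549) and of -1.05 at 24 h, a difference of -2.35 ± 0.19 (adjusted p = 4.96e-05). Both times share the DMSO libraries, which do not enter the difference between 24 h and 2 h. The 24 h call of Gbx2 itself was lost on the deposited FPKM, with a pseudocount of 1 and without 24 h replicate 1. The cause was not tested.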

How the results depend on the processing

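Against 77 higher and 170 lower genes, the counts were 239 and 74 on the deposited FPKM, 243 and 379 with a pseudocount of 0.1, 20 and 91 with a pseudocount of 1, 3 and 43 at a mean of at least 5 FPKM (739 genes tested), and 417 and 420 by voom. Chosen after seeing the data, a rescaling to the reads outside Gm26917 and Gm42418 gave 131 and 295, and voom on genes with at least 10 reads gave 1202 and 1163. Without single libraries the counts ran from 64 to 85 and from 140 to 272, the last without DMSO replicate 3. No filter (63 and 160), at least 10 reads (58 and 155) and the 6 libraries alone (62 and 155) stayed within 1.5 times. Changed list members numbered 53 and 17 with pseudocounts of 0.1 and 1, 9 at a mean of at least 5 FPKM, 58 by voom, 108 by voom with at least 10 reads, and 25 to 39 without single libraries. Of 90 named genes called, 56 were called on the deposited FPKM, 58 with a pseudocount of 1, 88 by voom, and 63 without any 1 of the 6 libraries, and no called gene reversed. The log2 change of the uncalled Nanog ran from -0.025 (without 24 h replicate 3, adjusted p = 0.952) to 0.32 without single libraries and that of the uncalled mt-Rnr1 from -0.13 (without the same library, adjusted p = 0.771) to 0.30, so that both reversed. The causes were not tested.

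With replicate number as a block, 69 genes were higher and 171 lower (68 and 167 of them shared), 26 list members changed, and RNA-seq gave 1231 and 560 against 1232 and 557 of 17246 genes over 200 bp. Of the named genes only Egr1 lost its call (adjusted p = 0.0523). Not every library correlated best with its own number, and the samples share only a number.

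For the same genes steady-state RNA gave 1712 higher and 335 lower on the deposited TPM, and 1153 to 1295 higher and 509 to 611 lower without single libraries. Peak shares moved as follows, in percentage points (24 h minus DMSO). With all deposited peaks, risers had -9.96 for H3K9me3, -9.52 for H3K27Ac, -12.3 for RNAPII and -16.2 for MED23, and fallers -5.29 for H3K9me3, -20 for RNAPII and -41.5 for MED23, while all genes tested had -3.22, -12.7, -29.2 and -48.3 for the 4 marks in the order above. With 5000 peaks (3844 for RNAPII), risers had -4.33 for H3K9me3 and -7.79 for MED23, and fallers -12.9 for MED23. In a 5 kb window, risers had -7.79 for H3K9me3 and -10.4 for MED23, and fallers -1.37 and -17.9. Without single libraries, risers ran from -7.14 to -5.84 for H3K9me3, -3.68 to 0.866 for H3K27Ac, 0 to 1.30 for RNAPII and -6.49 to -5.19 for MED23. Fallers ran from -0.294 to 0, -14.8 to -5.10, -3.24 to -0.294 and -22.4 to -21.2.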

Other observations

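Changed genes were spread unevenly over gene classes and chromosomes, given here as values without a test. Of 8581 protein-coding genes tested, 29 were higher and 79 lower (0.921%), against 7.62% lower of 328 lincRNA genes and 6.58% lower of 304 antisense genes. The median lengths of these classes were 21259, 3519 and 2646.5 bp in that order. Of 29 unprocessed pseudogenes, 6 were higher (20.7%). On chromosome 17, 18 of 540 genes were lower (3.33%) and 0 higher. Of the higher genes 36 of 77 overlapped another gene on the same strand, and 26 lay wholly inside one, against 24 and 7 of the 170 lower genes. Of 6 higher pseudogenes checked, all 25-base words of Gm10222, Gm28437 and Gm28439 occur in the mitochondrial genome, against 53.7% for Gm13340, 37.9% for Gm13339 and 0% for Vmn2r-ps20.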
